A study of Mus musculus with 4 samples.

Results

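The activin, follistatin and transforming growth factor-beta (TGF-beta) ligand genes Inhba, Inhbb, Fst, Tgfb1, Tgfb2 and Tgfb3 were followed through development of the mouse lower first molar. They were found as every array probe that carries one of these gene names, which gave 6 of 27654 genes and 7 of 41174 probes, Inhbb having 2 probes. The material was pooled whole mandibular first molar germs of C57BL/6 embryos at embryonic days 11, 12, 16 and 18 (E11, E12, E16 and E18), each set against germs of embryonic day 14 (E14) of the same strain, and no group carried a mutation or treatment. Total RNA of the stage was labelled with Cy5 and RNA of E14 with Cy3, with 1 array per stage, 4 arrays in all and no dye swap. The labels do not say how many germs made up a pool. With 1 pool per stage, a ratio to E14 has no biological replicate, and a change over time was tested only as a linear trend in embryonic day over the 4 arrays.

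Activins are dimers of inhibin beta subunits. Inhba encodes the beta A subunit and Inhbb the beta B subunit. Follistatin, the product of Fst, binds activins outside the cell and blocks their access to receptors. The TGF-betas are made with a propeptide that holds them latent in the matrix until they are released. Activins and TGF-betas signal through type II and type I receptor kinases to Smad2 and Smad3. In the mouse tooth germ Inhba is known as a signal of the mesenchyme: without it, incisors and mandibular molars stop at the bud stage. Follistatin is known from the dental epithelium, where it affects cusp pattern and enamel formation.

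The promoters of both activin subunit genes are shown because the 2 genes had different stage patterns. Each sequence runs from 250 bases before to 50 bases after the gene's start in RefSeq (GRCm38.p6). Inhba lies at chr13:16011601-16011900 on the plus strand, and capitals mark TAATTG, a homeodomain core, on either strand. Inhbb lies at chr1:119422199-119422498 on the minus strand, and capitals mark GGGCGG, the GC box, on either strand.
Inhba: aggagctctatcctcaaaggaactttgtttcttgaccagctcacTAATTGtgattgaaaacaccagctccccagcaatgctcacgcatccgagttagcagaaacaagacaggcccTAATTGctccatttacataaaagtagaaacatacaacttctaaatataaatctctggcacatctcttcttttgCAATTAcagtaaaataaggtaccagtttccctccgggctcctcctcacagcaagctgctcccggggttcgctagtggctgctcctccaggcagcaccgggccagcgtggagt
Inhbb: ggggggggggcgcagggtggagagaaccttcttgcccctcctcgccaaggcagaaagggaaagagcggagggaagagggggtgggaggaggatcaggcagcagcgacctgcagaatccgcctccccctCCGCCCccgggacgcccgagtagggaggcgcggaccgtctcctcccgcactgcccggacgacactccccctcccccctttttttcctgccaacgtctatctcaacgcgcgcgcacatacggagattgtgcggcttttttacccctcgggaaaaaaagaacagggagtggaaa
The Inhba window held 3 matches to TAATTG, which occurs at least once in 8% of 32851 RefSeq promoter windows of this length. It also held 1 TATAAA (in 13.6% of windows) and 1 CTTTGA (16%), and 47.7% of its bases were G or C. The Inhbb window held 1 GGGCGG (in 35.7% of windows) and no TATAAA, and 64.3% of its bases were G or C, against a median of 52.7% over all windows. Neither window held CAGACA (in 21% of windows), TGANTCA (7.81%) or TGACGTCA (1.79%). All motifs were searched on both strands. Of the 6 genes, 4 had a promoter in the RefSeq table, and those of Fst and Tgfb3 were not analysed here.

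The scanner software put 52.5% to 59.0% of Cy5 probe signals and 54.3% to 57.0% of Cy3 probe signals well above background, and no spot was saturated. Such a signal in at least 1 Cy5 or 2 Cy3 channels made a probe count as measured, which held for 26106 probes, among them all 7 probes of these genes. The E14 channel had a median SD of 0.052 log2 units over the 4 arrays. E11 and E12 shared 1 slide and E16 and E18 the other, so slide cannot be told apart from the step between E12 and E16. Marker lists moved with stage. The summed level of 6 dental epithelium markers was 9561, 23719, 106921 and 82925 at E11, E12, E16 and E18, against 57740 to 70775 at E14, and 5 of the 6 rose. That of 6 dental mesenchyme markers was 26417, 27608, 7380 and 3776 at these stages, against 23629 to 23912 at E14, and all 6 fell. That of 6 red cell markers was 78749, 44305, 18172 and 19801, against 45741 to 48596 at E14, and 3 fell, the embryonic globin genes Hbb-y, Hbb-bh1 and Hba-x. Hba-a1 and Alas2 did not pass, with slopes of 0.13 and -0.0041. The bone and odontoblast markers stood at 478, 605, 3816 and 4068, against 1828 to 2063 at E14, and 3 of 6 rose. Of 5 measured keratinizing epithelium markers 2 rose, of 4 measured cartilage markers 1 fell, and no skeletal muscle, endothelium or macrophage marker passed in limma's test, while Myog and Cd68 had an unadjusted p under 0.05. In whole germs fewer cells of a type and less RNA per cell cannot be told apart, and the part of these shifts in the values below was not tested.

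Inhba was highest at E14 under loess. Its Cy5 level was 9.93 (E11), 10.94 (E12), 10.24 (E16) and 9.74 (E18) on the log2 scale, against 12.32 to 12.36 in the E14 channel of the 4 arrays (SD 0.017, n = 4). The labels do not say whether the 4 E14 channels hold 1 pool, so this SD may be that of repeated hybridisations. Every stage lay below every E14 value. The log2 ratio to E14 was -2.43 (E11), -1.41 (E12), -2.09 (E16) and -2.58 (E18), which is 5.40-, 2.66-, 4.27- and 6.00-fold lower. The E11 and E18 values lay 0.15 apart, within the gap of 0.19 that repeated spots on an array allow, and the gaps between E12, E16 and E11 were wider than that. This gap covers technical noise within an array alone, since the spread between pools and slides was not measured. E14 was at least 2-fold above all 4 other stages for 73 of 26106 probes (0.28%), representing 66 genes, and 12 of these probes, that of Inhba included, had a smallest gap of at least that of Inhba. Centring each array on its median instead of loess moved the median of all probes to 0.33, 0.53, 0.46 and 0.13. The Inhba ratios were then -1.28, -0.08 at E12, -1.07 and -1.98. E12 was thus no longer 2-fold below E14, and it lay within the gap of 0.19 from it. The Inhba probe lies at chr13:15394279-15394338 on the plus strand (mm7). Its place within the transcript was not analysed here.

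Inhbb had another course and was highest at E16. Its brighter probe gave a Cy5 level of 5.88 (E11), 5.77 (E12), 9.0 (E16) and 7.99 (E18), against 6.44 to 6.82 at E14 (SD 0.16, n = 4). The E11 and E12 values were not well above background, and the E16 and E18 values lay above every E14 value. Levels were at least 1.53-fold lower at E11 and at least 1.60-fold lower at E12 than at E14. Each bound takes the dim channel at the higher of its own signal and the lowest signal well above background on that array. At E11 the latter was used, and at E12 the former, so the E12 bound is the measured ratio itself. Levels were 4.54-fold higher at E16 and 2.52-fold higher at E18. In the scanner's own log ratios the values were larger in size, at -3.05 (E11), -4.12 (E12), 3.34 (E16) and 2.53 (E18) on the log2 scale. Under median centring they were -0.68, -0.76, 2.88 and 1.53. Relative to E12, the level at E16 was at least 7.26-fold higher, a bound that is again the measured ratio. At E16, 99.9% of measured probes had a ratio at or below that of Inhbb. The second Inhbb probe, whose start lies 2334 bases away, was dim: its Cy5 signal was well above background at E16 alone and its E14 signal on no array. Its log2 ratio at E16 was 0.17, at least 1.1-fold higher, which is within the gap of 0.19 that repeated spots allow. The values of this probe at the other stages have no measured order. The brighter probe lies at chr1:119276025-119276084 and the dimmer at chr1:119278359-119278418, both on the minus strand (mm7).

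**Figure D1:**
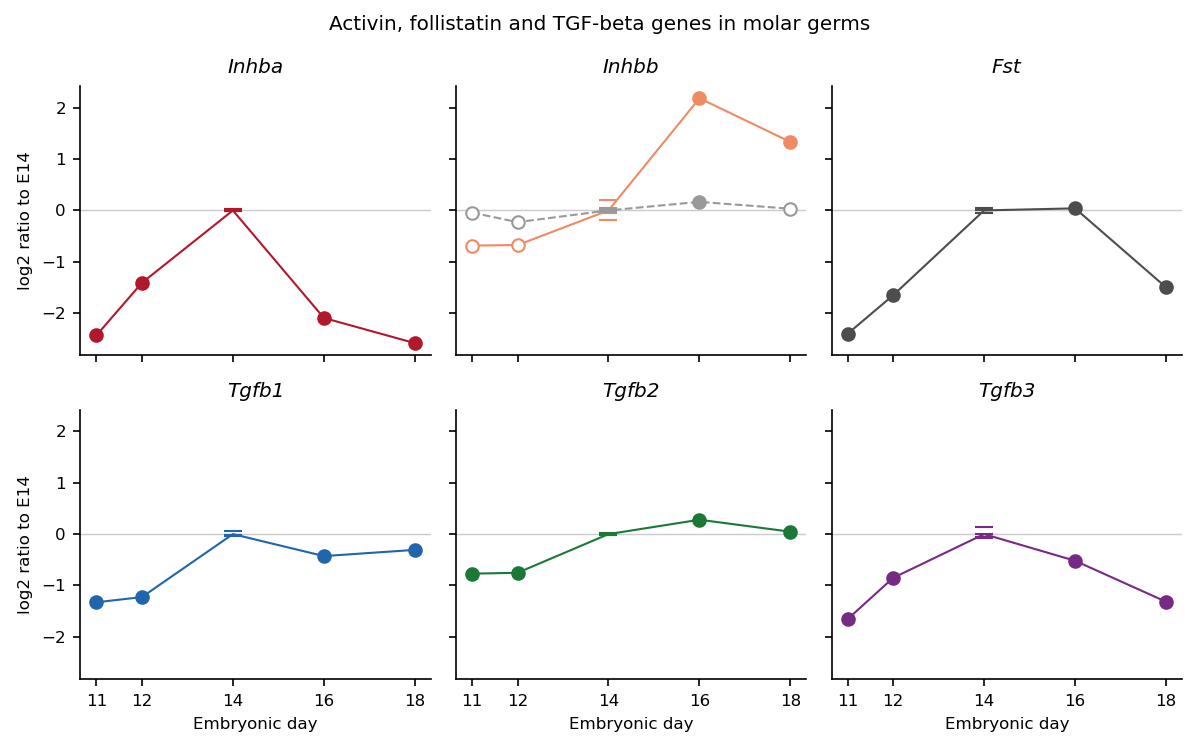
Log2 ratio of each stage to E14 (y axis) by embryonic day (x axis) for the 7 probes of the 6 genes, 1 point per array; open symbols are not well above background, dashes at day 14 are the E14 channel of the 4 arrays around their mean, and the grey dashed line is the dimmer Inhbb probe. Inhba lies below E14 on every array, and the brighter Inhbb probe is above it at E16 and E18.

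Under loess Fst stood close to its E14 level at E16 and below it at the other stages. Its Cy5 level was 7.51 (E11), 8.31 (E12), 10.04 (E16) and 8.46 (E18), against 9.96 ± 0.035 at E14 (SD, n = 4). The ratio to E14 was 5.29-fold lower (E11), 3.14-fold lower (E12), 1.03-fold higher (E16) and 2.82-fold lower (E18). Under median centring the log2 ratios were -1.66, -0.60, 0.97 and -1.08. Under loess the gaps between E16 and E14 and between E18 and E12 were within that of repeated spots. From E16 to E18, on the same slide, Fst was 2.91-fold lower at E18. The log2 ratio of Inhba minus that of Fst was -0.03 (E11), 0.24 (E12), -2.13 (E16) and -1.09 (E18), each relative to E14. Relative to E14, the 2 genes stood nearer each other at the early stages than at the late ones, as differences of ratios with no test. Under median centring the E11 and E12 ratios were -1.28 and -0.08 for Inhba, against -1.66 and -0.60 for Fst. How near they stood early thus depends on the scaling. The Fst probe spans chr13:111626922-111627594 on the minus strand (mm7), a stretch of 673 bases.

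Tgfb1 was highest at E14 under loess, though not under median centring, and higher late than early. Under loess E14 lay above all 4 other stages, by any amount, for 20.5% of measured probes. That share is also the background for Tgfb3 below. Its Cy5 level was 6.77 (E11), 6.85 (E12), 7.67 (E16) and 7.85 (E18), against 8.08 to 8.16 at E14 (SD 0.036, n = 4). The ratio to E14 was 2.51-, 2.34-, 1.34- and 1.24-fold lower at these stages. The gene was read by 10 spots per array, and their log2 ratios ran from -1.41 to -1.06 (E11), from -1.28 to -0.97 (E12), from -0.48 to -0.29 (E16) and from -0.39 to -0.16 (E18). These ranges take in 2 spots flagged as outliers on at least 1 array, which the averaged ratio leaves out where flagged. The early and late arrays did not overlap in these spots. Spots are repeats on one array, and the early and late arrays were also on different slides, so this is a description only. Under median centring the log2 ratios were -0.89, -0.56, 0.26 and -0.015. The probe lies at chr7:22478890-22478949 on the plus strand (mm7).

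Tgfb2 was below E14 early and close to it late under loess, and neither held under median centring. Its Cy5 level was 8.53 (E11), 8.57 (E12), 9.57 (E16) and 9.36 (E18), against 9.29 to 9.33 at E14 (SD 0.018, n = 4). The ratio to E14 was 1.71-fold lower (E11), 1.69-fold lower (E12), 1.21-fold higher (E16) and 1.03-fold higher (E18). Under median centring the log2 ratios were 0.011, 0.27, 1.17 and 0.48, so the early directions and the late sizes depend on the scaling. The probe lies at chr1:186149057-186149116 on the minus strand (mm7).

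Tgfb3 was highest at E14 and lowest at E11 under loess, but highest at E16 and lowest at E18 under median centring. Its Cy5 level was 9.04 (E11), 9.71 (E12), 9.96 (E16) and 9.18 (E18), against 10.48 to 10.69 at E14 (SD 0.095, n = 4). The ratio to E14 was 3.15-fold lower (E11), 1.81-fold lower (E12), 1.43-fold lower (E16) and 2.49-fold lower (E18). All stages lay below every E14 value. Under median centring the log2 ratios were -0.71, 0.33, 0.43 and -0.83. The probe lies at chr12:84058334-84058393 on the minus strand (mm7). Comparisons of a stage with E14 set Cy5 against Cy3 and are open to dye bias. Between stages, only the part of this bias that is equal on the arrays compared drops out. Dye bias that differs by array or by signal strength can remain in the stage-to-stage values. Under median centring the median of all probes differed by array, at 0.33 (E11), 0.53 (E12), 0.46 (E16) and 0.13 (E18). The part of dye bias in these medians was not tested.

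The 6 genes were counted together, each by its brightest probe. At E11 the ratio to E14 reached 2-fold for 4 of them, against 5.32% of all measured probes. All 4, Inhba, Fst, Tgfb1 and Tgfb3, were lower (background 3.89%, and 1.43% higher). At E12 Inhba, Fst and Tgfb1 were apart (background 2.32%), all lower (2.06%, and 0.264% higher). At E16 2 genes were apart (3.09%), Inhbb higher (1.62%) and Inhba lower (1.47%). At E18 4 were apart (6.47%), Inhbb higher (3.28%) and Inhba, Fst and Tgfb3 lower (3.19%). Under median centring these counts changed. Only Inhba and Fst were then at least 2-fold lower at E11 and E18, none of the 6 was at E12, and Tgfb2 joined Inhbb among those at least 2-fold higher at E16. Under loess, the median ratio of the 6 genes was -1.49, -1.04, -0.19 and -0.81 at E11, E12, E16 and E18, against 0.0056, 0.012, 0.0094 and -0.0046 over all measured probes. Between neighbouring stages under loess, E12 was at least 2-fold above E11 for Inhba alone (2.03-fold, background 0.532%). None of the 6 was as far below it (0.222%). E16 was at least 2-fold above E12 for Inhbb, Fst (3.23-fold) and Tgfb2 (2.05-fold), against 3.73% of probes above and 1.26% below. E18 was at least 2-fold below E16 for Fst alone (0.678%) and above it for none (0.402%). Over the full span, E18 was at least 2-fold above E11 for Inhbb (at least 3.86-fold) and Tgfb1 (2.03-fold). The background was 4.74% of probes above and 2.15% below. These stage-to-stage sets also changed under median centring. Fst and Tgfb3 then also rose at least 2-fold from E11 (log2 ratios -1.66 and -0.71) to E12 (-0.60 and 0.33). Inhbb and Tgfb3 also fell at least 2-fold from E16 (2.88 and 0.43) to E18 (1.53 and -0.83). Tgfb2 no longer reached 2-fold from E12 (0.27) to E16 (1.17), nor Tgfb1 from E11 (-0.89) to E18 (-0.015).

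**Figure D2:**
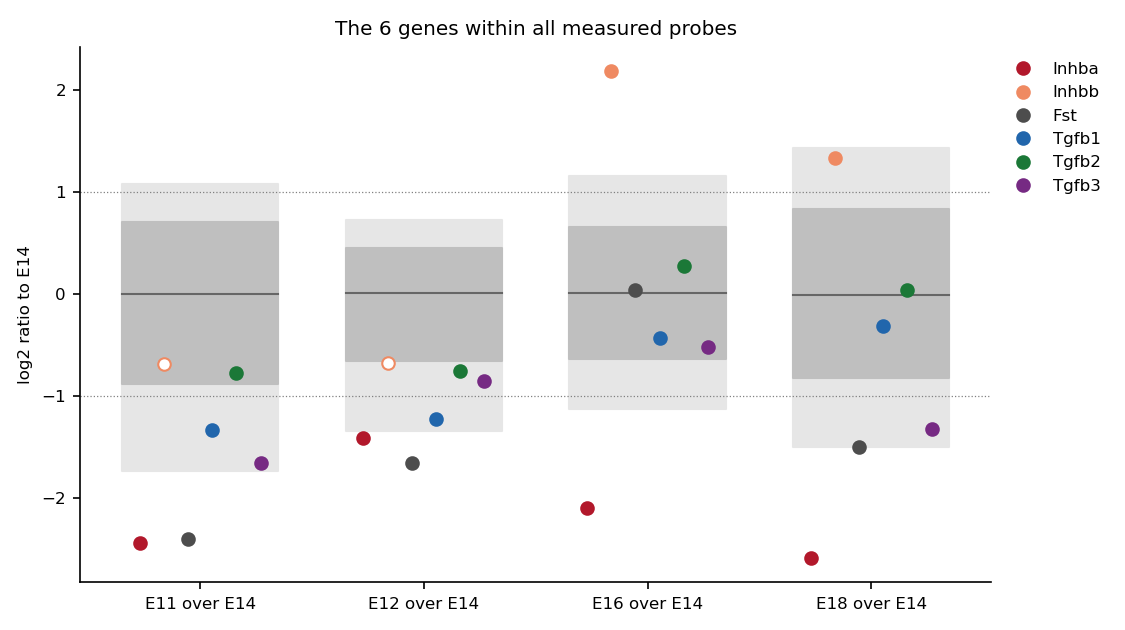
Log2 ratio to E14 (y axis) on each array (x axis) for the brightest probe of the 6 genes, over the range of all 26106 measured probes (line, median; dark band, percentiles 5 to 95; light band, percentiles 1 to 99; open symbols, not well above background). Inhba lies below the light band on all 4 arrays, and Inhbb lies above the dark band at E16 and E18.

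In the linear trend, limma's moderated test with Benjamini-Hochberg adjustment over 26106 probes called 2 of the 6 genes, against 8.38% of probes (5.79% rising and 2.59% falling). By its brighter probe Inhbb rose by 0.38 ± 0.085 log2 units per day (SE, adjusted p = 0.0410). This slope rests in part on values not well above background. With 1 array left out it ran from 0.30 to 0.61, the highest being without E18. The dimmer Inhbb probe had a slope of 0.033 ± 0.019 (adjusted p = 0.322) and did not pass. Tgfb1 rose by 0.16 ± 0.029 (adjusted p = 0.0248). The fit takes in E11, E12, E16 and E18, and E14 is not a point in it. A gene can therefore rise in the trend and lie below E14 at each of these stages, as Tgfb1 did under loess. Tgfb2 had a slope of 0.15 ± 0.039 (adjusted p = 0.0648), Fst 0.18 ± 0.10 (adjusted p = 0.298), Tgfb3 0.044 ± 0.062 (adjusted p = 0.685) and Inhba -0.069 ± 0.061 (adjusted p = 0.503). Neither call held with slide as a block, where Inhbb had a slope of -0.34 ± 0.12 (adjusted p = 0.570) and Tgfb1 of 0.068 ± 0.16 (adjusted p = 1.0). Within slides, E12 minus E11 was 0.0093 for Inhbb and 0.10 for Tgfb1, and E18 minus E16 was -0.85 and 0.12. Both calls were also lost without E11 and without E12, and under median centring, where the adjusted p was 0.0552 for Inhbb and 0.142 for Tgfb1.

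The root mean square difference of the 4 log2 ratios was 0.54 between Tgfb1 and Tgfb2, 0.56 between Tgfb1 and Tgfb3, 0.62 between Fst and Tgfb3 and 0.91 between Tgfb2 and Tgfb3, and it was largest, at 3.05, between Inhba and Inhbb. Among 13629 other genes well above background on all arrays, Prss12 (0.21), Lama4 (0.31) and Fgf18 (0.36) lay closest to Inhba. Matn2 (0.26), Ltbp4 (0.29), which encodes a latent TGF-beta binding protein, and Smoc2 (0.32) lay closest to Fst. Lypd1 (0.21), Lypd3 (0.29) and Nt5e (0.32) lay closest to Inhbb. Endod1 (0.059), Cnn2 (0.091) and Dipk2a (0.11) lay closest to Tgfb1, H2-D1 (0.068), Tpi1 (0.071) and Atp6v0b (0.079) to Tgfb2, and Lamb2 (0.12), Ccn4 (0.13) and Masp1 (0.15) to Tgfb3. These distances are over 4 arrays that share the E14 channel and are a description only.

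Of 63 other genes of the pathway, 62 were on the array and 53 measured, of which 9 rose (17%) and 4 fell (7.55%) in the trend, against 5.79% and 2.59% of all measured probes. The counts per list below have the same background. None of these 13 passed with slide as a block in limma's test (3 kept their direction at an unadjusted p under 0.05), and 7 passed under median centring. Among the other ligands, 5 of 10 were measured and Lefty1, which encodes an inhibitor of Nodal signalling, rose by 0.19 ± 0.024 (adjusted p = 0.00742). Its ratio to E14 was -0.58 (E11), -0.21 (E12), 0.37 (E16) and 0.85 (E18). Its Cy5 signal was well above background on 3 of the 4 arrays, its lowest level being 5.91 at E11. Inha, Nodal, Gdf1 and Gdf11 had slopes of 0.051, -0.017, -0.041 and -0.016 and did not pass.

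Among 6 measured receptors of 8, none rose in limma's test (1, Acvr1b, had a rising slope at an unadjusted p under 0.05) and 2 fell. Acvr2b, an activin type II receptor, fell by 0.24 per day (adjusted p = 0.0119), with ratios to E14 of 0.44, 0.64, -0.66 and -1.04 at E11, E12, E16 and E18. Tgfbr1, the type I receptor of the TGF-betas, fell by 0.15 per day (adjusted p = 0.0447), with ratios of 1.20, 0.82, 0.15 and 0.16. Tgfbr2, the type II receptor, did not pass (slope 0.093, adjusted p = 0.201) and had ratios of -1.25, -0.85, -0.30 and -0.64. The activin receptors Acvr1b and Acvr2a and the coreceptor Eng did not pass either, with slopes of 0.13, -0.012 and 0.025.

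Among the extracellular regulators, 15 of 18 were measured, 4 rose and 1 fell. Bambi, which encodes a pseudoreceptor that dampens signalling, rose by 0.55 per day (adjusted p = 0.00313) with ratios of -0.13, -0.33, 2.25 and 3.42. Dcn, encoding the matrix proteoglycan decorin, rose by 0.38 (adjusted p = 0.0310). Its ratios under loess were -3.71, -3.03, -0.73 and -1.40, all below E14. Ltbp2, of the latent TGF-beta binding protein family, rose by 0.22 (adjusted p = 0.0294), and Itgav, the alpha V integrin subunit, by 0.19 (adjusted p = 0.0196). Wfikkn2, which encodes a binding protein of related ligands, fell by 0.20 (adjusted p = 0.0238), with ratios of 0.94, 1.29, -0.0040 and -0.15. Ltbp4 had ratios of -2.41, -1.67, -0.26 and -0.99 but did not pass (adjusted p = 0.0924), and Itgb8 and Nrros had slopes of -0.041 and -0.040.

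All 12 Smads and co-regulators were measured, and none rose or fell at an adjusted p under 0.05, while 1, Foxh1, had an unadjusted p under 0.05. The ends of the list were Ski, a Smad co-repressor (slope 0.060, adjusted p = 0.380), and Foxh1, a Smad-binding transcription factor (slope -0.083, adjusted p = 0.163). Smad7, the inhibitory Smad, and Smad3 had slopes of 0.057 and 0.033, and Smad4 and Smurf1 of -0.046 and -0.018.

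All 15 TGF-beta response genes were measured, 4 rose and 1 fell. Cdkn1a and Cdkn2b, which encode inhibitors of the cell cycle, rose by 0.37 (adjusted p = 0.00787) and 0.25 (adjusted p = 0.0155). The Cy5 signal of Cdkn2b was well above background on 3 of the 4 arrays, its lowest level being 6.05 at E11. Ccn2, encoding connective tissue growth factor, rose by 0.33 (adjusted p = 0.0230), with ratios of -1.23, -0.07, 1.27 and 1.19. Klf10, a transcription factor gene induced early by TGF-beta, rose by 0.17 (adjusted p = 0.0350). Its ratios under loess were -1.40, -1.50, -0.46 and -0.45, also all below E14. Tgfbi, encoding a matrix protein, fell by 0.20 (adjusted p = 0.0451). The collagen gene Col1a1 had ratios of -3.51, -2.28, -0.41 and -1.74 and did not pass (adjusted p = 0.147). Postn, the periostin gene, had ratios of -2.64, -1.02, -1.45 and -3.19, below E14 on each array as Inhba was, and did not pass either (adjusted p = 0.565). Fn1, the fibronectin gene, had a slope of -0.14 (adjusted p = 0.101). Ltbp2, Itgav, Cdkn2b and Klf10 are named because they passed, after their values were seen.

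**Figure D3:**
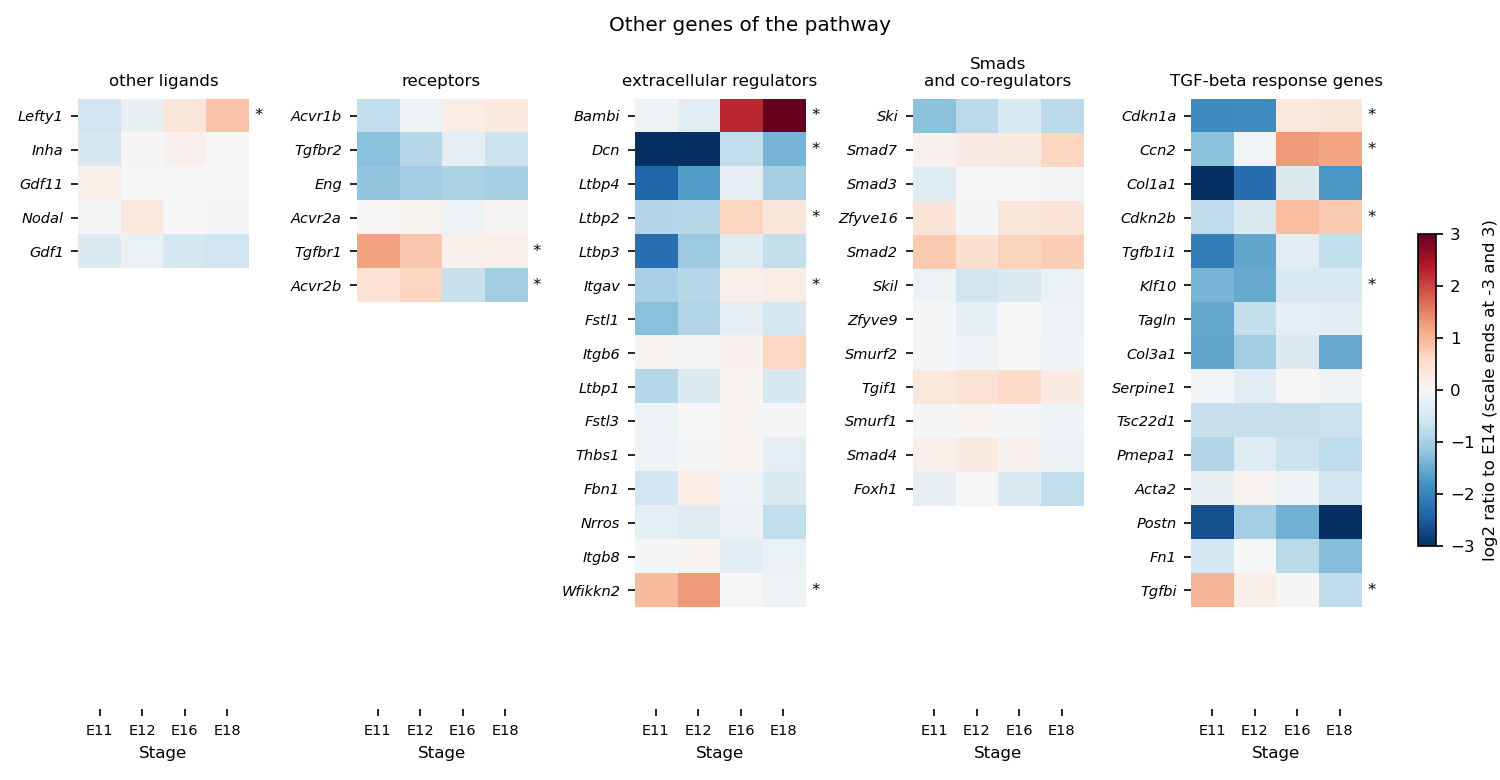
Log2 ratio to E14 at the 4 stages (columns) for the 53 measured pathway genes (rows), grouped by role and ordered by trend slope; red is above E14, blue below, colours end at -3 and 3, and an asterisk marks an adjusted p under 0.05 in the trend. Bambi reaches 3.42 at E18, and Col1a1 lies at -3.51 at E11.

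The scaling of the arrays bore on the directions of some genes. Of 28 stage values of the 7 probes, 6 changed sign under median centring, and 1 each without background correction and in the scanner's own log ratios, both times the dimmer Inhbb probe at E18. The Inhba ratios were negative under all 3 alternatives, though that of E12 under median centring, -0.08, was within the gap of repeated spots.

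**Figure D4:**
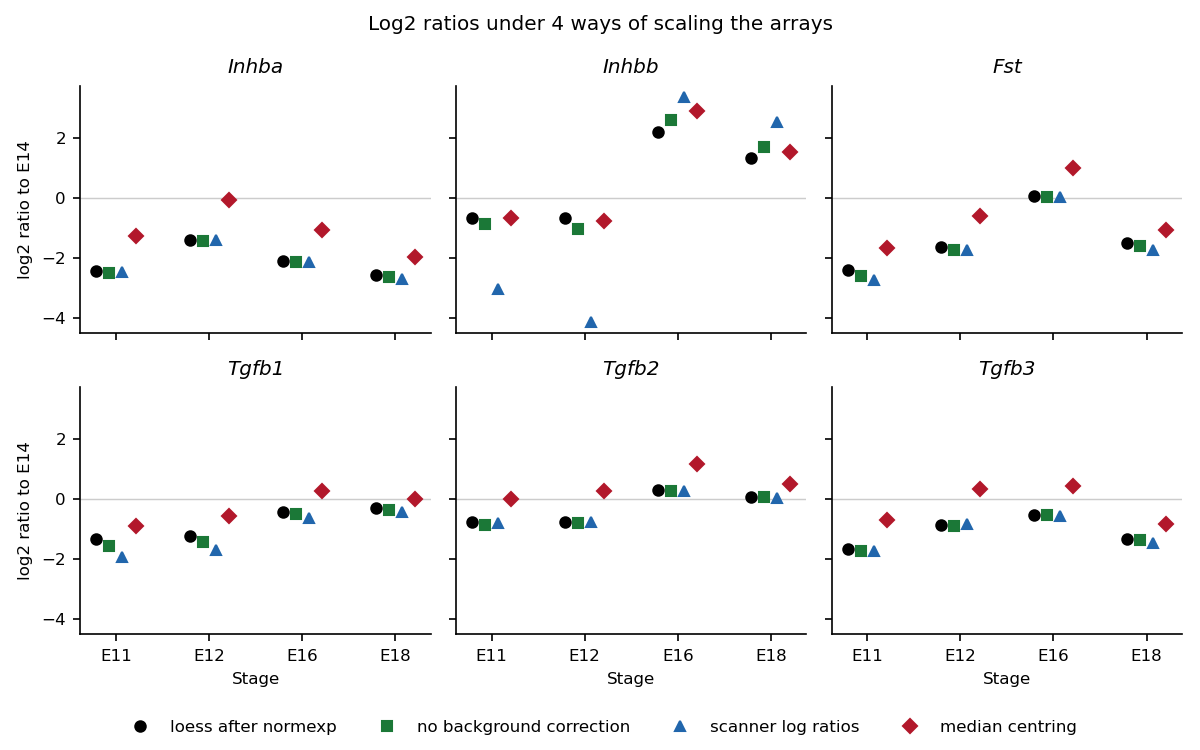
Log2 ratio to E14 (y axis) of each gene at the 4 stages (x axis), 1 symbol per setting, under loess after normexp, no background correction, the scanner's log ratios and median centring. Median centring lifts most values, and Inhba stays below 0 throughout, at -0.08 at E12.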

How the data were processed

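Per the labels, total RNA (Trizol) of pooled germs was labelled with Cy3 (E14) and Cy5 (the other stage). The scanner files as deposited give each spot's linear intensity with flags, and per the file headers come from Agilent Feature Extraction 10.5.1.1. The deposited LogRatio column and value table hold log10 ratios of Cy5 over Cy3, which matched each other within 0.005 for 100% of 44996 rows, with column medians of 0.

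Starting from the deposited intensities, limma 3.58.1 (R 4.3.3) gave log2 ratios: normexp (offset 50), loess within arrays with control spots at weight 0, outlier spots (92 to 126 per array) left out, spots averaged by probe. The offset compresses ratios of dim genes. Levels per channel are log2 values after Aquantile scaling. Over 245 probes with 10 spots, the median SD between spots was 0.0559 to 0.0675 by array. The number of arrays limits precision. The trend was fitted by lmFit and eBayes with an intensity trend and 2 residual degrees of freedom. On simulated data of 26106 probes, slopes of 0.2, 0.4 and 0.8 were recovered in 52.6%, 84.7% and 100% of cases, with 0 false calls. The simulated noise was independent between probes and arrays, with no slide or pool effect. These figures therefore do not cover errors shared by a slide or a pool.

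Of 41174 probes, 22951 were named by accession, 6659 by symbol and 3152 by synonym through RefSeq (GRCm38.p6), and 8412 kept the array's name. Probe coordinates are those of the files (mm7). Named were all probes of the 6 genes, up to 3 genes at each end of the slopes per pathway list, and the 3 genes closest to each of the 6. A gene takes its brightest probe. The members and lists were chosen with earlier results of these data known.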

Additional observations from a re-analysis of the deposited data

How the results depend on the processing

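With 1 array per stage, no result has a biological replicate, and signal over background limits dim probes such as those of Inhbb. No paired analysis was possible because each group holds 1 sample. The trend called 2187 of 26106 probes (6868 at an unadjusted p under 0.05), 129 with slide as a block, and 448 to 3254 when 1 array was left out (448 without E11, 615 without E12). Probes at least 2-fold from E14 numbered 1390 (E11), 606 (E12), 807 (E16) and 1689 (E18). They were 5824, 3275, 4425 and 6934 in the scanner's log ratios, and 5878 (94.2% higher), 7354 (98.0%), 5477 (99.1%) and 2949 (88.0%) under median centring; at E16 there were 1216 without background correction. E12 against E11 gave 197 probes, and 314 without background correction, 2596 in the scanner's log ratios and 501 under median centring (90.6% higher). E18 against E16 gave 282, 2539 and 774 (6.85% higher), and E18 against E11 1800, 6599 and 2956 (33.2% higher), by loess, scanner and median centring. With slide as a block the slope changed sign for Inhba (0.0082), Inhbb (-0.34), its dimmer probe (-0.091), Fst (-0.47), Tgfb2 (-0.090), Tgfb3 (-0.16), Acvr2a (0.093), Col1a1 (-0.29), Dcn (-0.13), Gdf1 (0.012), Itgb8 (0.081), Klf10 (-0.016), Ltbp2 (-0.11), Ltbp4 (-0.15), Nodal (0.062), Ski (-0.051), Tgfbr2 (-0.054) and Wfikkn2 (0.012). Under median centring it did for Tgfb3 (-0.024), Eng (-0.020), Ski (-0.013) and Smad3 (-0.026). It also did without E11 for Tgfb3, Inha and Smad3, without E12 for Nodal, and without E18 for Nrros and Postn; slopes with 1 array left out ran from -0.055 to 0.19 for Tgfb3, -0.0047 to 0.095 for Inha, -0.0027 to 0.055 for Smad3, -0.055 to 0.0054 for Nodal, -0.063 to 0.031 for Nrros and -0.33 to 0.14 for Postn. The Tgfb1 call was lost without E11 (adjusted p = 0.0883) and without E12 (0.0928), and the Inhbb call likewise (0.164 and 0.156). Without E18, Fst (slope 0.47, adjusted p = 1.51e-07), Tgfb2 (0.22, 0.00989) and Tgfb3 (0.19, 0.0451) passed. Of the 13 pathway genes that passed, 2 did so without E11 and 4 without E12. The cause of these changes was not tested.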
